A study of Homo sapiens with 2 samples.

Results

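The ends of the human autosomes were examined in HCT116, an established colorectal carcinoma cell line, for H3K27me3, a repressive mark in which histone H3 carries 3 methyl groups on lysine 27. An end was the 1 Mb that begins at the outermost bin with a read on chromosomes 1 to 22. The short-arm sides of chromosomes 13, 14, 15, 21 and 22 were left out, because what is listed first there lies beside the centromere. This left 39 of 44 ends, 17 on short arms and 22 on long arms, or 39 Mb and 1.35% of the autosomal bins spanned by the files. Each end was set against the stretch that lies 5 to 10 Mb inward from the same end, on the same chromosome arm. Members were chosen by position, and the outermost bin of each holds a read by definition.

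The series held 1 group of 2 libraries, described as biological replicates, of HCT116 cells, with no treatment named in the labels, fixed with formaldehyde and precipitated with an antibody to H3K27me3. No input library was used here, so copy number and mappability are not corrected. Replicate 1 held 53187504 reads and replicate 2 held 97031399 reads, counted in bins of 1 kb on hg19. The level of a bin is its read count over the mean of the library's listed autosomal bins, 22 reads in replicate 1 and 37.5 in replicate 2, and a bin that is not listed counts as 0. With 1 group there is no test between conditions, ends are regions of the same libraries and not replicates, and the spread between the libraries may be technical.

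Polycomb repressive complex 2 deposits H3K27me3, typically over the CpG-rich promoters of developmental genes that are kept silent. Chromosomes end in telomeres, arrays of the repeat TTAGGG, which are largely missing from the reference assembly. Inside them lie the subtelomeres, mosaics of segments duplicated between chromosomes that carry gene families such as olfactory receptors and zinc finger genes. Reads from duplicated segments cannot always be placed, and the share of bins listed is therefore given beside the levels. The part of that share in the levels was not tested. Unlisted bins also came in long unbroken runs, which enter the levels as 0. The ends with the longest such runs were 1q, 8q, 1p, 13q and 17p. Whether these runs are sequence missing from the reference assembly was not tested.

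Chromosome ends were poorer in H3K27me3 than the chromatin further in. The median over the 39 ends was 0.579 in replicate 1 and 0.614 in replicate 2, against 1.01 and 1.07 for the stretches 5 to 10 Mb inward. These stretches are 5 Mb long and the ends 1 Mb, so the medians are over windows of unlike length. For single megabases from 5 to 10 Mb the medians ran from 0.731 to 1.11 in replicate 1 and from 0.773 to 1.17 in replicate 2. The ends ranged from 0.223 to 1.95 in replicate 1 and from 0.231 to 2.07 in replicate 2, and the inner stretches from 0.296 to 2.5001 and from 0.320 to 2.66. The ranges of ends and inner stretches therefore overlapped widely. The ends held 1.10% of the autosomal reads in replicate 1 (Wilson 95% interval 1.09 to 1.10) and 1.079% in replicate 2 (1.077 to 1.081), less than their 1.35% of bins. These intervals cover counting error only. Fewer bins were listed in the ends, 76.8% in replicate 1 and 84.2% in replicate 2, against 90.2% and 95.1% of inner bins. Over listed bins alone the mean level was 0.863 in ends and 1.17 in inner stretches of replicate 1, and 0.829 and 1.18 in replicate 2.

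Arm by arm, 10 of 39 ends (25.6%) stood above their own inner stretch in both libraries, 26 stood below it in both, and 3 changed sign between the libraries. A similar comparison was made for the other 1 Mb windows, counted inward from each end, so that a window could be counted from both ends of its chromosome. A window and its stretch could also lie on different arms. Windows or stretches with under 50% of bins listed were left out. This limit was not set for the 39 ends, of which 1p had 41.4% of bins listed. In 44.2% of these 4456 comparisons the window stood above the 5 Mb that begin 5 Mb further in, in both libraries. The median log2 ratio of an end over its inner stretch was -0.69 in replicate 1 and -0.74 in replicate 2. At 18 ends the level was at least 2-fold below the inner stretch in both libraries, and at 7 of these at least 4-fold. Only 2 ends, 2p and 7p, were at least 2-fold above it. For these 2-fold and 4-fold counts no share over other windows was computed, so they are not set against what other megabases show. The log2 ratios of the libraries differed by at most 0.13 at any end, so all but the 3 ends near equality, 4q, 9q and 15q, kept their side in both. Over listed bins alone, 14 of 39 ends stood above their inner stretch in both libraries, a count for which no share over other windows was computed.

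**Figure D1:**
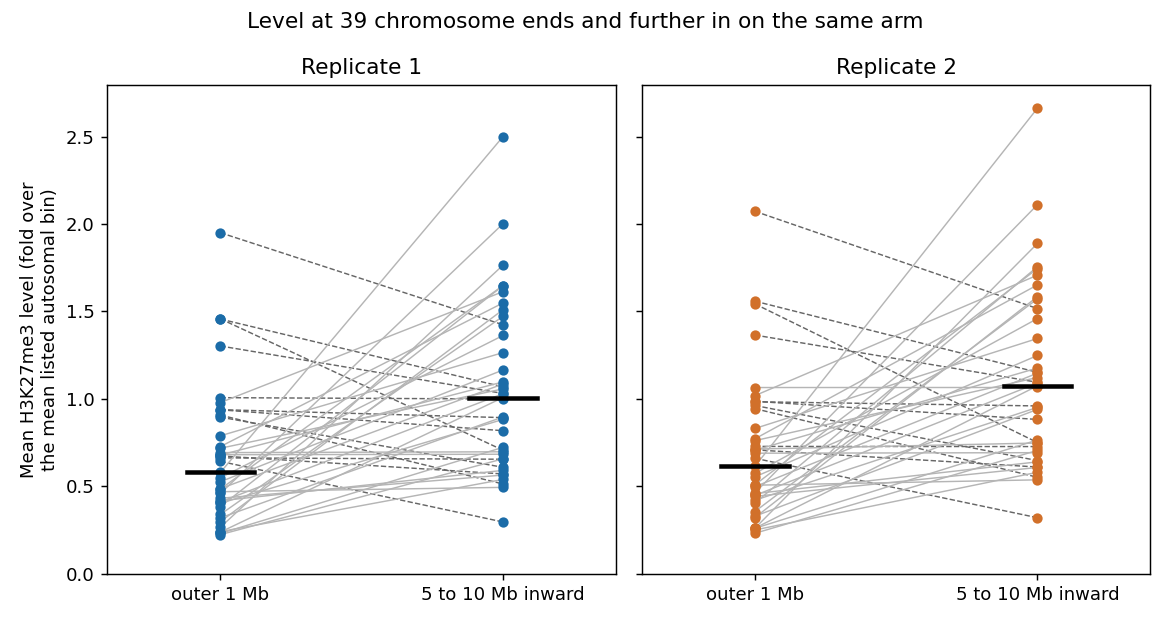
Mean H3K27me3 level (fold over the mean listed autosomal bin) in the outer 1 Mb and 5 to 10 Mb inward at 39 chromosome ends, 1 panel per library. Points are ends, lines join the same arm (dashed where the end is higher) and bars mark medians of 0.579 and 1.01 in replicate 1 and 0.614 and 1.07 in replicate 2, with most lines running upward.

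Rich megabases were scarcer among ends than among other windows, whereas poor ones were about as frequent. Of the ends, 15 (38.5%) had a level under 0.5 in both libraries, close to the 39.4% among autosomal 1 Mb windows with at least 50% of bins listed. A level of at least 1 in both libraries was reached by 5 ends (12.8%), against 32.7% of such windows. The median autosomal window stood at 0.631 in replicate 1 and 0.672 in replicate 2. Of the 10 successive megabases counted from each end, the outermost was the highest at 0 of 39 ends in replicate 1 and at 0 in replicate 2. It was the lowest at 5 ends in both libraries, a number that the seventh and the tenth megabase exceeded, with 6 each. In both libraries, the second to the tenth megabase were the highest at 2, 1, 6, 3, 5, 6, 7, 4 and 4 ends, in that order.

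With unlisted bins counted as 0, the mean level was lowest at the very end and came near that of the inner stretch beyond the second megabase. Over listed bins alone the very end was not the lowest. The outermost 10 kb had a mean over ends of 0.438 ± 0.0246, the stretch from 10 to 50 kb 0.546 ± 0.0285, and that from 50 to 100 kb 0.626 ± 0.0182 (SD, n = 2 libraries). From 100 to 200 kb the mean was 0.878 ± 0.0422, the highest within the outer 1 Mb, and it was 0.667 ± 0.0252 from 200 to 500 kb and 0.670 ± 0.0216 from 500 to 1000 kb. Without the 2 highest ends of the class from 100 to 200 kb, its mean became 0.698 in replicate 1 and 0.749 in replicate 2. The second megabase was still low at 0.741 ± 0.0237. From 2 to 5 Mb the mean was 1.02 ± 0.0399 and from 5 to 10 Mb 1.09 ± 0.0490. The share of bins listed in either library moved with the outer part of this profile, being 60.3% in the outermost 10 kb, 74.2% from 50 to 100 kb, 86.4% from 100 to 200 kb and 97.4% from 5 to 10 Mb. Over listed bins alone, the mean was 0.891 in replicate 1 and 0.785 in replicate 2 in the outermost 10 kb, 1.095 and 1.09 from 100 to 200 kb, 0.847 and 0.808 from 200 to 500 kb, and 0.818 and 0.781 from 500 to 1000 kb. The second megabase, with 94.98% of its bins listed, had 0.863 and 0.834 on that scale, against 1.17 and 1.18 from 5 to 10 Mb. The inner stretch thus stood above each of these classes on that scale too, while the order among the classes changed.

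**Figure D2:**
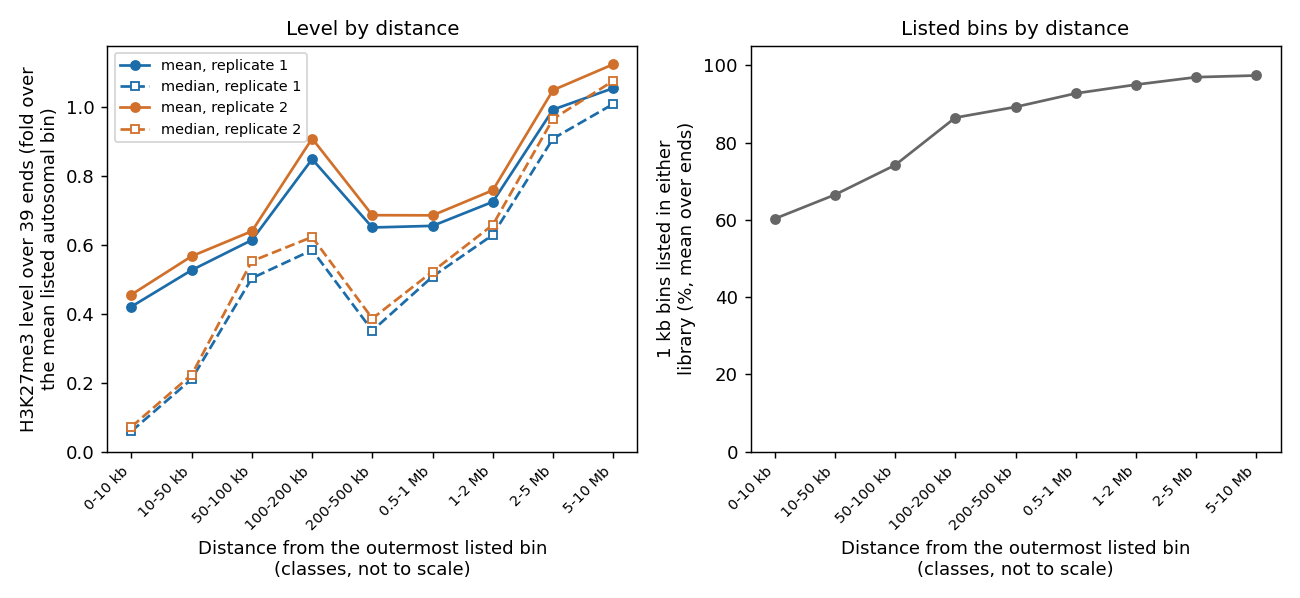
Left, the mean (circles) and median (squares) H3K27me3 level over 39 ends by class of distance from the outermost listed bin, in fold over the mean listed autosomal bin, for each library; right, the share of 1 kb bins listed in either library. Mean levels do not exceed 0.907 in the outer 2 Mb and reach 1.053 or more from 5 to 10 Mb.

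The level of the outermost 100 kb spread widely, with a median over ends of 0.414 in replicate 1 and 0.438 in replicate 2. The ends under 0.1 and those of at least 1 are the tails of this spread. No share over other windows of 100 kb was computed for either tail. At 10 ends the level of the outermost 100 kb was under 0.1 in both libraries: 2q, 4q, 5q, 6p, 6q, 8p, 11p, 16p, 16q and 19p. A median of 22% of their outermost 100 bins was listed, ranging from 4% to 64%, against a median of 89% at the other ends. The end of 8p held only 3 reads there in replicate 1 and 14 in replicate 2, and 5q held 7 and 14. The end of 16p was the best listed of them, with 64% of its bins, and its level was 0.0377 in replicate 1 and 0.0426 in replicate 2.

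At 7 ends the outermost 100 kb had a level of at least 1 in both libraries: 2p, 5p, 7p, 7q, 8q, 20p and 20q. At least 81% of these bins were listed. The highest was 5p, at 2.86 in replicate 1 and 2.99 in replicate 2 with 100% of bins listed, followed by 8q at 1.86 and 2.06 and 20p at 1.87 and 1.94. The next 100 kb stood lower on both arms, at 0.889 and 0.904 on 5p and at 0.434 and 0.477 on 8q. On 5p the signal came back from 500 to 600 kb, at 2.26 in replicate 1 and 2.36 in replicate 2, while no later step of 8q exceeded 0.587. Over the whole 1 Mb, 8q was a poor end, at 0.411 in replicate 1 and 0.447 in replicate 2, with 78.3% of bins listed. Its steps from 800 to 900 kb and from 900 to 1000 kb had only 4% and 2% of bins listed. Over listed bins alone 8q stood at 0.614 in replicate 1 and 0.602 in replicate 2. On 20q the outermost 10 kb had 2.80 in replicate 1 and 3.09 in replicate 2, while the end as a whole stood at 0.484 and 0.508.

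**Figure D3:**
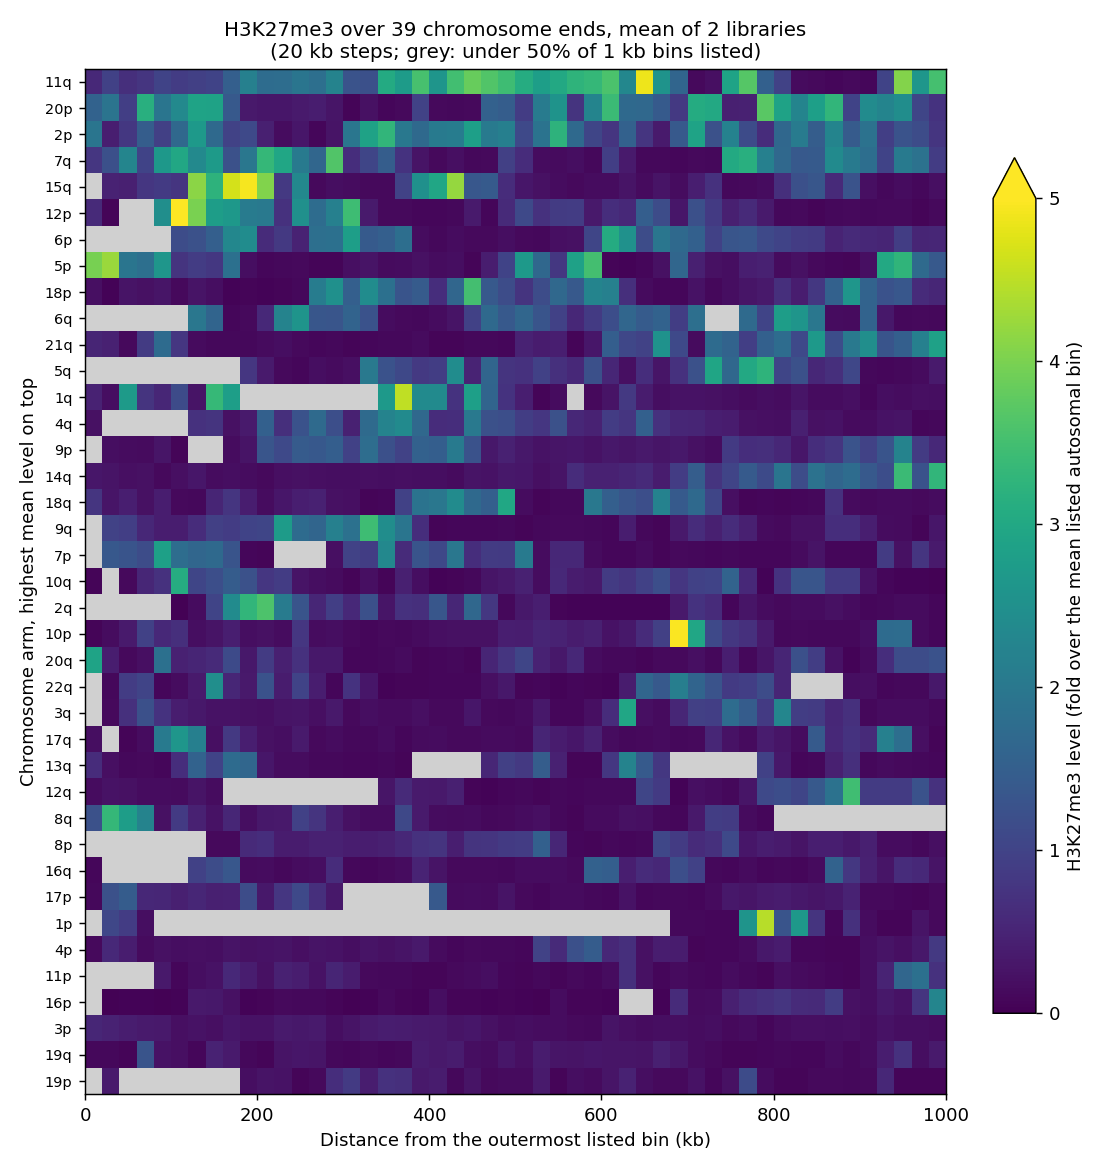
H3K27me3 level (mean of 2 libraries, fold over the mean listed autosomal bin, colour saturated at 5) in steps of 20 kb over the outer 1 Mb of 39 chromosome arms, ordered by mean level; grey marks steps with under 50% of bins listed. Rich ends such as 11q, 20p, 2p and 7q carry signal in several separate blocks, the bottom rows carry little and in few places, and grey steps are most frequent in the first 100 kb.

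Enriched bins were called as in the whole genome: a one-sided Poisson test of each 5 kb bin against the library's mean autosomal bin with reads, Benjamini-Hochberg adjusted over all bins of chromosomes 1 to 22 and X, and at least 2-fold, in both libraries. Of the 7779 bins of 5 kb that lie wholly within the ends, 777 (9.99%) were enriched, against 13.6% of all autosomal bins and 18.7% of the inner stretches. Bins without reads count in these shares, and listing differed. In replicates 1 and 2, 76.8% and 84.2% of 1 kb bins were listed in the ends. Over the autosomes it was 81.9% and 87.6%, and in the inner stretches 90.2% and 95.1%. The part of listing in the enriched shares was not tested. Enriched bins were concentrated in a few ends: 11q, 20p, 2p and 7q together held 283 of them, or 36.4%. The share exceeded the autosomal one at 10 ends, its median over ends was 5.53%, and 3p and 19p had no enriched bin.

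Enriched bins joined across at most 1 bin formed 253 domains that touched the ends. They were mostly short, with a median of 10 kb as over all autosomal domains, and 45.1% were single bins, against 38.1% of the 13014 autosomal domains. Long domains were scarce at the ends, where 3 domains (1.19%) reached 100 kb, against 7.18% of autosomal domains. These lay on 11q, 12p and 20p. The part of listing in the number and length of domains was not tested. Over the 37 ends with a domain, the outermost domain began at a median of 130 kb from the outermost listed bin. At 9 ends a domain began within 50 kb, the closest being on 20q at 1 kb and on 5p at 3 kb. How often a domain begins as near to other points of the autosomes was not computed. The domain on 5p covered 35 kb, from 15001 to 50000, at 5.00 ± 0.108 times the mean 5 kb bin (SD, n = 2), and that on 20q covered 15 kb at 3.86 ± 0.120. Domain levels are folds over the mean 5 kb bin with reads and are not on the scale of the 1 kb levels. They average only the enriched bins of a domain, each at least 2-fold by the call. Bins bridged in joining are left out, so a domain level is not the mean over its whole length. The domain on 8q, from 146235001 to 146275000, stood at 4.87 ± 0.122.

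The end of 11q was the richest of the 39. Over 133945001 to 134945000 its level was 1.95 in replicate 1 and 2.07 in replicate 2, against 1.42 and 1.52 further in, with 99% of bins listed and 47.5% of its 5 kb bins enriched. Among the outermost protein-coding genes of this arm in the gene table are B3GAT1, which encodes the glucuronyltransferase that makes the HNK-1 carbohydrate of neural cells, VPS26B, a subunit of the retromer sorting complex, and NCAPD3, a subunit of condensin II. The table has positions on GRCh38, so it gives here only which genes neighbour an end, and no gene is assigned to a bin. The signal on 11q was higher further in. Steps of 100 kb had 0.770 in replicate 1 and 0.822 in replicate 2 at the very end and 3.26 and 3.54 from 400 to 500 kb. The longest domain of all the ends lay here, 195 kb from 134330001 to 134525000, at 3.76 ± 0.0119 times the mean 5 kb bin. The step from 800 to 900 kb was the lowest of this end, at 0.289 and 0.299, and it still held an enriched 5 kb bin at its outer border.

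The end of 20p, from 60001 to 1060000, had 1.46 in replicate 1 and 1.56 in replicate 2, against 1.07 and 1.15 further in. Its outermost genes in the table are beta-defensins, DEFB125 to DEFB129 and DEFB132, a family of antimicrobial peptides expressed largely in the male reproductive tract, followed by C20orf96 and SOX12, a SoxC transcription factor gene. Signal stood at both sides of a gap. The outermost 200 kb had 1.87 and 1.94 in the first 100 kb and 1.91 and 2.04 in the second. From 300 to 400 kb the level was 0.281 in replicate 1 and 0.314 in replicate 2. A domain of 100 kb, from 840001 to 940000, stood at 3.47 ± 0.0281 times the mean 5 kb bin.

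On 2p the end had 1.46 in replicate 1 and 1.54 in replicate 2, against 0.706 and 0.750 further in, a log2 ratio of 1.04 ± 0.00308 (SD, n = 2). FAM110C, SH3YL1, ACP1, which encodes a small protein tyrosine phosphatase, ALKAL2, a ligand of the receptor tyrosine kinase ALK, and TMEM18 are the outermost genes there. A domain of 50 kb from 340001 to 390000 was the longest of this end, at 3.67 ± 0.191 times the mean 5 kb bin, and 29.1% of the 5 kb bins were enriched in both libraries. The end of 7q had 1.30 in replicate 1 and 1.36 in replicate 2, against 1.03 and 1.09 further in. VIPR2, a receptor for vasoactive intestinal peptide, is the outermost gene there in the table, with DYNC2I1, an intermediate chain of the dynein of cilia, next. Its signal also came in separate blocks, with 2.70 in replicate 1 and 2.77 in replicate 2 from 200 to 300 kb, 0.268 and 0.229 from 500 to 600 kb and 1.78 and 1.80 from 800 to 900 kb. These ends of 11q, 20p, 2p and 7q are among the 6 with at least 98% of bins listed. The other ends so completely listed, 14q and 3p, were below their inner stretches. Their levels were 0.679 and 0.240 in replicate 1 and 0.706 and 0.250 in replicate 2. The part of listing in these levels was not tested.

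The ends of 12p and 15q each carried a long domain near the end. On 12p the domain from 145001 to 275000 covered 130 kb. Its enriched bins stood at 4.44 ± 0.0591 times the mean 5 kb bin. It lay beside an outermost part in which 43% of the first 100 bins of 1 kb were listed. The step from 100 to 120 kb reached 7.71 in replicate 1 and 8.30 in replicate 2. Within it the 1 kb bin from 179001 to 180000 had 14.9 in replicate 1 and 14.7 in replicate 2, from 328 and 553 reads. IQSEC3, an exchange factor for ARF GTPases at inhibitory synapses, SLC6A13, a GABA transporter, and KDM5A, a histone H3 lysine 4 demethylase, are among the outermost genes of 12p. Over the whole 1 Mb this end had 0.979 in replicate 1 and 1.02 in replicate 2, below its inner stretch at 1.61 and 1.71, but its log2 ratio was 0.16 against the whole chromosome. On 15q, where olfactory receptor genes OR4F15 and OR4F6 come first and PCSK6, a proprotein convertase, follows, the domain from 102305001 to 102400000 stood at 4.93 ± 0.0534. The end as a whole had 1.01 in replicate 1 and 1.06 in replicate 2, against 0.999 and 1.065 further in.

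**Figure D4:**
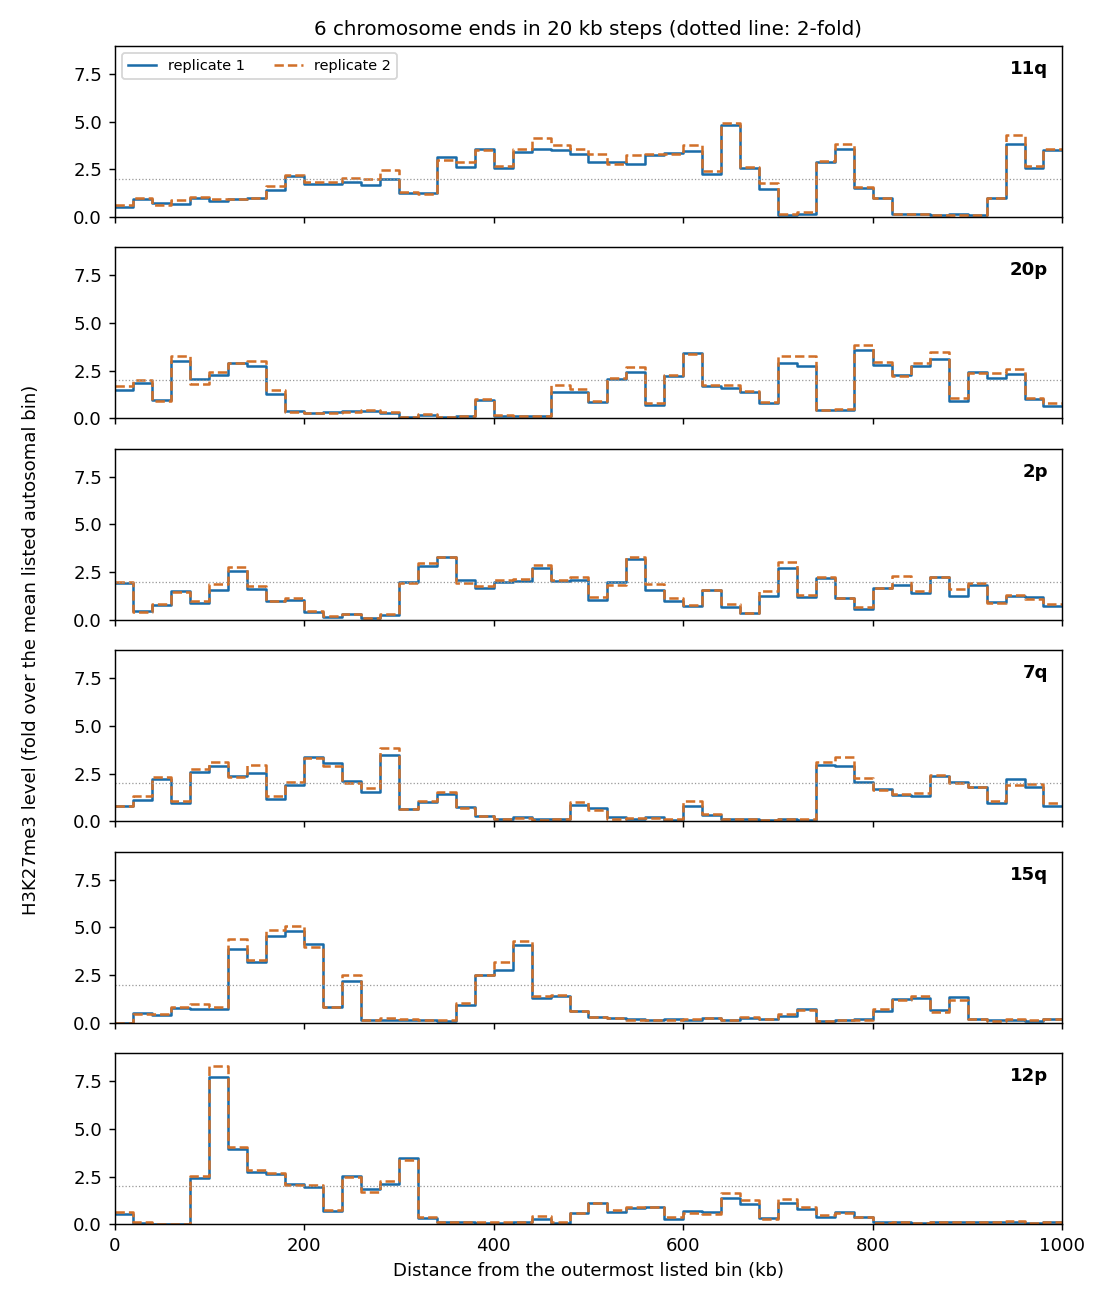
H3K27me3 level (fold over the mean listed autosomal bin) in steps of 20 kb against distance from the outermost listed bin for the ends of 11q, 20p, 2p, 7q, 15q and 12p; solid and dashed lines are the libraries and the dotted line marks 2-fold. The libraries run together, blocks above 2-fold alternate with low stretches, and the peak of 12p from 100 to 120 kb reaches 7.71 and 8.30.

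Set against their own arm, 7p, 2p, 6q, 18p and 11q had the highest ratios, with mean log2 ratios of 1.082 ± 0.0525, 1.04 ± 0.00308, 0.80 ± 0.0327, 0.56 ± 0.0112 and 0.45 ± 0.00213 (SD, n = 2). For 7p the ratio came with a poor inner stretch, at 0.296 in replicate 1 and 0.320 in replicate 2, below those of all the other arms, while the end itself had 0.642 and 0.660. FAM20C, a kinase of secreted proteins, FOXL3, a forkhead gene, and PDGFA, a growth factor gene, are the outermost genes of 7p. The ratio of 7p turned to -0.55 against the stretch from 2 to 5 Mb and to -0.22 against the whole chromosome. On 6q, where PDCD2 and TBP, which encodes the TATA-binding protein, come first, the end had 0.907 in replicate 1 and 0.944 in replicate 2, and the stretch further in had 0.513 and 0.551. The ratio of 6q was -0.61 against 2 to 5 Mb and -0.28 against 10 to 15 Mb. The 18p end had 0.895 and 0.962, against 0.609 and 0.647 further in, and its ratio was -0.56 against 10 to 15 Mb. For 7p, 6q and 18p the direction therefore depended on which inner stretch was used, whereas 2p and 11q were higher than each of the stretches tried.

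The lowest ratios were those of 11p, 4p, 17q, 17p and 10q, with mean log2 ratios of -2.80 ± 0.0920, -2.33 ± 0.0271, -2.16 ± 0.0472, -2.13 ± 0.0187 and -2.11 ± 0.00507 (SD, n = 2). On 11p the end had 0.265 in replicate 1 and 0.260 in replicate 2, against 1.76 and 1.89 further in. SIRT3, a mitochondrial deacetylase, PSMD13, a proteasome subunit, and the interferon-induced IFITM1 and IFITM3 are among its outermost genes. On 4p, where the zinc finger genes ZNF595, ZNF718 and ZNF141 come first, the end had 0.297 in replicate 1 and 0.320 in replicate 2, against 1.51 and 1.58, with 95.2% of end bins and 94.5% of inner bins listed. The end of 17p had 0.339 and 0.355, against 1.47 and 1.57 further in. The end of 10q had 0.579 and 0.614, against 2.5001 and 2.66 further in, and that of 17q had 0.459 and 0.462, against 2.00 and 2.11. HCT116 is known to carry extra copies of parts of 8q, 10q and 17q, and the part of copy number in these ratios was not tested. The end of 16q, at -2.11, was nearly as low as 10q. The ratio of 10q turned to 0.57 against 2 to 5 Mb.

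The poorest ends by level were 19p, 19q, 3p, 16p and 11p. On 19p the level was 0.223 in replicate 1 and 0.231 in replicate 2, with 78.9% of bins listed, against 0.657 and 0.705 further in, and no 5 kb bin was enriched. On 19q, where MZF1 and other zinc finger genes neighbour the end together with UBE2M, which encodes a NEDD8-conjugating enzyme, it was 0.230 and 0.259, against 0.723 and 0.765, and 1 bin of 199 was enriched. On 3p the level was 0.240 and 0.250 although 98.6% of bins were listed, against 0.539 and 0.580 further in. Its outermost genes, in order, are the neural cell adhesion genes CHL1, CNTN6 and CNTN4. The order does not show which of them lie within the 1 Mb. No step of 100 kb on 3p exceeded 0.409 in replicate 1 or 0.438 in replicate 2. On 16p, where POLR3K, NPRL3 and the alpha-globin family gene HBM are near the end, the level was 0.238 and 0.260, against 1.01 and 1.07 further in.

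The 21 ends outside these rankings lay between the extremes, with levels from 0.320 to 0.938 in replicate 1 and from 0.329 to 0.986 in replicate 2. Their median log2 ratio was -0.68 in replicate 1 and -0.70 in replicate 2, and 3 of them stood above the inner stretch in both libraries. They held from 1 to 35 enriched bins of 5 kb, with 1 on 8p and 35 on 5p. The least listed end of all was 1p, with 41.4% of bins, whose steps from 100 to 700 kb had at most 33% of bins listed and levels up to 0.0627 in replicate 1 and 0.0493 in replicate 2. Beyond that gap, from 700 to 800 kb, 1p stood at 1.43 and 1.51 with 93% of bins listed. OR4F5, an olfactory receptor gene, and SAMD11 are the outermost genes of 1p in the table.

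The sharpest single bin of all the ends lay on 22q. The 1 kb bin from 51082001 to 51083000, at 157 kb from the end, had 427 reads in replicate 1 and 700 in replicate 2, or 19.4 and 18.6 times the mean listed bin, and the next bin, from 51083001 to 51084000, had 8.59 and 8.42. The 22q end as a whole stood at 0.486 in replicate 1 and 0.498 in replicate 2, with 7 enriched bins of 5 kb. RABL2B, ACR, the gene of the sperm protease acrosin, and SHANK3, a scaffold protein gene of excitatory synapses, are its outermost genes in the table. Without an input library, a collapsed repeat cannot be told apart from a narrow peak in such a bin.

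Both ends of a chromosome need not be alike. Among the 17 chromosomes with both ends, the short-arm end was higher in both libraries on 7 and the long-arm end on 10, and on 7 the ends differed at least 2-fold. Across these chromosomes Pearson's r between short-arm and long-arm levels was -0.10 and Spearman's rho was 0.22, as a description over chromosomes of the same libraries. Chromosome 11 had the richest end on its long arm and one of the poorest on its short arm, whereas both ends of chromosome 19 were poor. Short-arm ends had a median level of 0.526 in replicate 1 and 0.554 in replicate 2, and long-arm ends had 0.621 and 0.651. These medians lay well within the range of either arm. Across the 39 ends the level had hardly any rank correlation with that further in, with a Spearman's rho of -0.0073 in replicate 1 and 0.0030 in replicate 2, and a weak positive one with the share of bins listed, with a rho of 0.40 and 0.39, also as a description.

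The libraries ordered the ends almost identically, with Pearson's r of 1.00 and Spearman's rho of 0.997 across the 39 ends, which are not independent replicates. Replicate 2 gave the higher level at 38 ends, by a median factor of 1.052, and at the inner stretches by a median factor of 1.07. Replicate 2 lists 2652211 bins and replicate 1 lists 2470347. When both were divided by the mean over bins listed in either library, a scaling added after the data were seen, the median ends stood at 0.639 in replicate 1 and 0.633 in replicate 2.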

How the data were processed

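The authors deposited raw read counts in bins of 1000 bases, as their accompanying text names the column; the files list whole numbers and leave out bins without a read. Per the submitters' processing notes, BWA 0.7.12 was used, with hg19 (GRCh37) as the build. How reads were counted, and whether duplicates or poorly mapped reads were removed, is not given in the sources used here. An end began at the outermost bin listed in either library. Enrichment used 5 kb bins, and a 5 kb bin of an end had to lie wholly within it. The alternatives varied the scaling, the use of unlisted bins, the length of an end, the inner stretch, the fold minimum, the ends included and the libraries, and 2 of them (scaling to bins listed in either library, and ends with at least 80% of bins listed) were added after seeing the data. No test between groups was possible. The calls were checked on simulated Poisson counts, which held no planted stretches without reads and so did not cover sparsely listed ends. The joining of bins into domains was checked only on a short hand-written row of bins. Ends were named by rank of level, of log2 ratio and of domain length (the 5 highest and 5 lowest, and the 3 longest domains). Others, namely 1p, 5p, 8p, 8q, 9q, 14q, 16q, 20q and 22q and those in the lists of the outermost 100 kb, were chosen after their values were seen. The members, tests and alternatives were chosen with earlier results of these data known. Neighbouring genes come from RefSeq on GRCh38 as an order only, from genes also found in its promoter table, which is incomplete; no sequence on hg19 was used here. Computation used scipy 1.17.1, pandas 2.3.3 and numpy 2.4.6 under Python 3.11.15, and plots used matplotlib 3.10.9.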

Additional observations from a re-analysis of the deposited data

Results flagged for a closer look

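Reads in the ends left out of the main measurement exceeded the limit of 3 reads that a count of 0 allows. The short-arm end of chromosome X, which holds the larger pseudoautosomal region shared with chromosome Y, had 12382 reads in replicate 1 and 22158 in replicate 2, or levels of 0.563 and 0.590, against 0.176 and 0.188 further in, and 77.5% of its bins were listed. The long-arm end of chromosome X had 3203 and 5954 reads, or 0.146 and 0.159, against 0.346 and 0.373 further in. The first 1 Mb listed on the short-arm side of chromosomes 13, 14, 15, 21 and 22 held 58537 reads in replicate 1 and 107275 in replicate 2 together. Levels there ran from 0.10 on chromosome 21 to 1.18 on chromosome 13 in replicate 1, and from 0.107 to 1.27 in replicate 2.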

How the results depend on the processing

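No paired analysis was possible because both libraries belong to the same group. The number of ends above their inner stretch stayed between 8 and 14 over all alternatives, and the median log2 ratio stayed below 0. The median level of 0.597 became 0.766 over listed bins only, 1.53 when divided by the median listed bin, 0.535 for ends of 0.5 Mb, 0.666 for ends of 2 Mb, 0.625 without the outermost 50 kb, 0.227 as the median bin and 0.663 without the ends of 8q, 10q and 17q. The median log2 ratio of -0.71 became -0.54 over listed bins, -0.83 for 0.5 Mb, -0.46 for 2 Mb, -0.67 without the outermost 50 kb, -0.91 for median bins, -1.10 against 10 to 15 Mb, -0.52 against the whole chromosome and -0.62 without 8q, 10q and 17q. The enriched share of 9.99% became 4.72% at 3-fold and 18.9% with no fold minimum. The mean of the outer 50 kb, 0.524, became 0.681 over listed bins, 1.35 when divided by the median listed bin and 0.497 without 8q, 10q and 17q. Alternatives chosen after seeing the data gave 0.636 (bins listed in either library) and 0.676 (ends with at least 80% of bins listed) for the median level, and 0.559 and 0.484 for the outer 50 kb.

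Leaving out each library in turn gave a median level of 0.579 to 0.614, a count of 11 to 12 ends, a log2 ratio of -0.74 to -0.69, an enriched share of 10.93% to 10.98% and an outer 50 kb of 0.505 to 0.544. Single ends turned round mostly with the inner stretch chosen. The log2 ratio of 15q, 0.0053, became -0.0049 without the top 0.1% of bins, -0.024 against 2 to 5 Mb, -0.15 against 10 to 15 Mb and, leaving out each library in turn, -0.00037 to 0.011. That of 7p became -0.55 against 2 to 5 Mb and -0.22 against the whole chromosome, that of 6q -0.61 against 2 to 5 Mb and -0.28 against 10 to 15 Mb, and that of 18p -0.56 against 10 to 15 Mb. That of 10q became 0.57 against 2 to 5 Mb and that of 12p 0.16 against the whole chromosome. The cause was not tested. Without an input library, copy number and mappability limit every level.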
